A study of Mus musculus with 9 samples.

Results

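The genes described here are 9 genes that mark retinal bipolar cells or their subtypes: the transcription factor genes Isl1, Vsx1, Bhlhe23 and Sebox, the signalling genes Prkca and Grik1, the calcium-binding protein genes Cabp5 and Scgn, and Car8. They were taken by symbol from the deposited table, and all 9 were found among its 22337 genes, each in a single row. RNA-seq of whole retinas was performed at P28 in 3 groups of 3 libraries. The WT group was non-treated C57BL/6J mice. The other groups were rd10 mice, which carry a mutation of the rod phosphodiesterase gene Pde6b in every cell and lose their rods, and each of their eyes received 1 μl of either normal saline (NS-treated) or extracellular vesicles from mesenchymal stem cells of human umbilical cord (MSC-EVs-treated) at P14 and again at P21. The labels give the vitreous as the place of injection in one field and an intravenous route in another. The rd10 littermates were divided between NS and MSC-EVs, whereas the WT mice were obtained separately and were not injected, so strain, source and injection cannot be told apart in any comparison with WT. The labels do not say whether the 3 libraries of a group came from separate animals, so the p-values cover only the spread between these libraries.

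Bipolar cells are the interneurons that carry signals from photoreceptors to amacrine and ganglion cells. Rod bipolar cells and ON cone bipolar cells respond to light through the glutamate receptor mGluR6, encoded by Grm6, and the channel TRPM1, while OFF cone bipolar cells use ionotropic glutamate receptors. When rods die in retinitis pigmentosa, bipolar cells lose their input, retract dendrites and are remodelled, but they outlive the photoreceptors for a long time.

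The libraries held between 19491717 and 62532343 counts, with MSC-EVs replicate 3 the deepest, and the members had between 691 counts (Bhlhe23 in WT replicate 3) and 31675 counts (Prkca in MSC-EVs replicate 3), so none lay near the detection limit. All 9 members, and 35 of 36 other bipolar genes, were above 1 FPKM, a level scaled to transcript length and depth, in every library. The 15 rod genes of a marker list were all lower in NS-treated than in WT retinas, with a median log2 fold change of -1.77, and the 11 microglial genes were all higher, with a median of 3.27. The 4 Y-linked genes had 733 to 1957 counts each in MSC-EVs replicates 1 and 2 and 0 to 8 in the other 7 libraries. The labels do not give the sex of the mice. In the comparisons of MSC-EVs, what goes with the Y-linked level and what goes with the vesicles cannot be fully told apart. The Y-linked level of each library was therefore also used as a covariate in the comparisons of MSC-EVs, and some log2 fold changes from that fit are given. As the level was high only in MSC-EVs replicates 1 and 2, the group difference in that fit rested mainly on MSC-EVs replicate 3. It therefore could not serve as a check of the other calls. In NS-treated against WT retinas, of 10 cone genes 2 were higher and 3 lower, and of 8 horizontal cell genes 5 were higher and 1 lower. Of 10 Müller glia genes 9 were higher, of 9 pigment epithelium genes 3 were higher, and of 8 lens genes 0 were called. Over all genes tested in that comparison, 31.2% were called higher and 30.1% lower, and the cone counts were near these shares. The summed levels of the pigment epithelium (58.2 to 248 CPM) and lens lists (13.4 to 153 CPM), in counts scaled to library size (CPM), varied from library to library in every group.

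Of the promoters of the 9 members, 7 were in the RefSeq set used here (GRCm38.p6), and those of Car8 and Grik1 were not. The motif TAATCC, bound by OTX2 and CRX, was searched on both strands from 250 bases before to 50 bases after the start, as were TAATTA, a homeodomain core, and the E-boxes CAGATG and CATATG. The motif TAATCC occurred in 2 of the 7 member promoters, those of Isl1 and Cabp5, and in 7.06% of all 32851 promoters. TAATTA occurred in 5.29% of all promoters, CAGATG in 17.2% and CATATG in 3.91%, and none of these 3 was found in a member promoter. The sequences upstream of the start are shown for the 2 promoters with a match and for Sebox, the member with the largest fall, which had none. TAATCC is in capitals.
Isl1, chr13:116309690-116309938, minus strand: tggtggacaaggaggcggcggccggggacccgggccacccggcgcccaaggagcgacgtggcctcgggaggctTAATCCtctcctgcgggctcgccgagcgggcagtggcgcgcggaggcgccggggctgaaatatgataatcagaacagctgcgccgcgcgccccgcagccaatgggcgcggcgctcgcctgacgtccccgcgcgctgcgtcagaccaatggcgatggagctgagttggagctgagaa
Cabp5, chr7:13397905-13398131, plus strand: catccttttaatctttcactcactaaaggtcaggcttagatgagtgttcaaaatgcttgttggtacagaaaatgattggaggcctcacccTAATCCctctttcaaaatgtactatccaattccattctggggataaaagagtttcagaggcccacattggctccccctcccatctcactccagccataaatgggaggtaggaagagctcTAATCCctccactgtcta
Sebox, chr11:78503263-78503446, plus strand: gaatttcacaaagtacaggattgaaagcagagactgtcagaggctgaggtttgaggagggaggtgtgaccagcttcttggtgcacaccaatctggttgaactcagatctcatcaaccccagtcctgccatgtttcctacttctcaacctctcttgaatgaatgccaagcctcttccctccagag
Cabp5 held TAATCC at 160 and at 41 bases before its start and Isl1 at 177 bases before. The match is a description of these letters, and no binding was measured.

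On the length-scaled FPKM values, the level of Cabp5 was the highest of the members in WT retinas, at 57.1 ± 0.774 FPKM (SD, n = 3). Prkca followed at 54.3 ± 0.231 and Scgn at 53.0 ± 2.37, and the libraries of these 2 genes overlapped. Sebox (38.4 ± 4.54) and Grik1 (35.9 ± 1.31) overlapped as well, and below them stood Isl1 (28.6 ± 1.27), Car8 (16.0 ± 0.564), Bhlhe23 (11.95 ± 0.594) and Vsx1 (10.5 ± 0.490), none of which overlapped with its neighbour. In NS-treated retinas Scgn was the highest, at 72.1 ± 5.20 FPKM, above the libraries of every other member, and Isl1, at 50.7 ± 1.65, overlapped with Prkca and Grik1. Sebox, at 31.6 ± 0.806 FPKM, then ranked 6 of 9. In MSC-EVs-treated retinas Prkca (59.5 ± 3.99), Scgn (59.3 ± 2.76) and Cabp5 (54.4 ± 6.85) overlapped at the top, and Vsx1 (12.3 ± 2.05) was the lowest in rank in every group.

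The values below are CPM after normalization by trimmed means of M values (TMM), which serve to compare 1 gene between libraries. The plot by library shows them all. The 9 members summed to between 1074 and 1090 CPM in WT, between 1023 and 1122 in NS-treated and between 1024 and 1138 in MSC-EVs-treated retinas, and these ranges overlapped. What differed was the make-up of the sum. Prkca took 45.5% ± 0.329 of it in WT and 39.0% ± 0.918 in NS-treated retinas, while the share of Isl1 was 7.13% ± 0.235 and 11.3% ± 0.155.

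**Figure D1:**
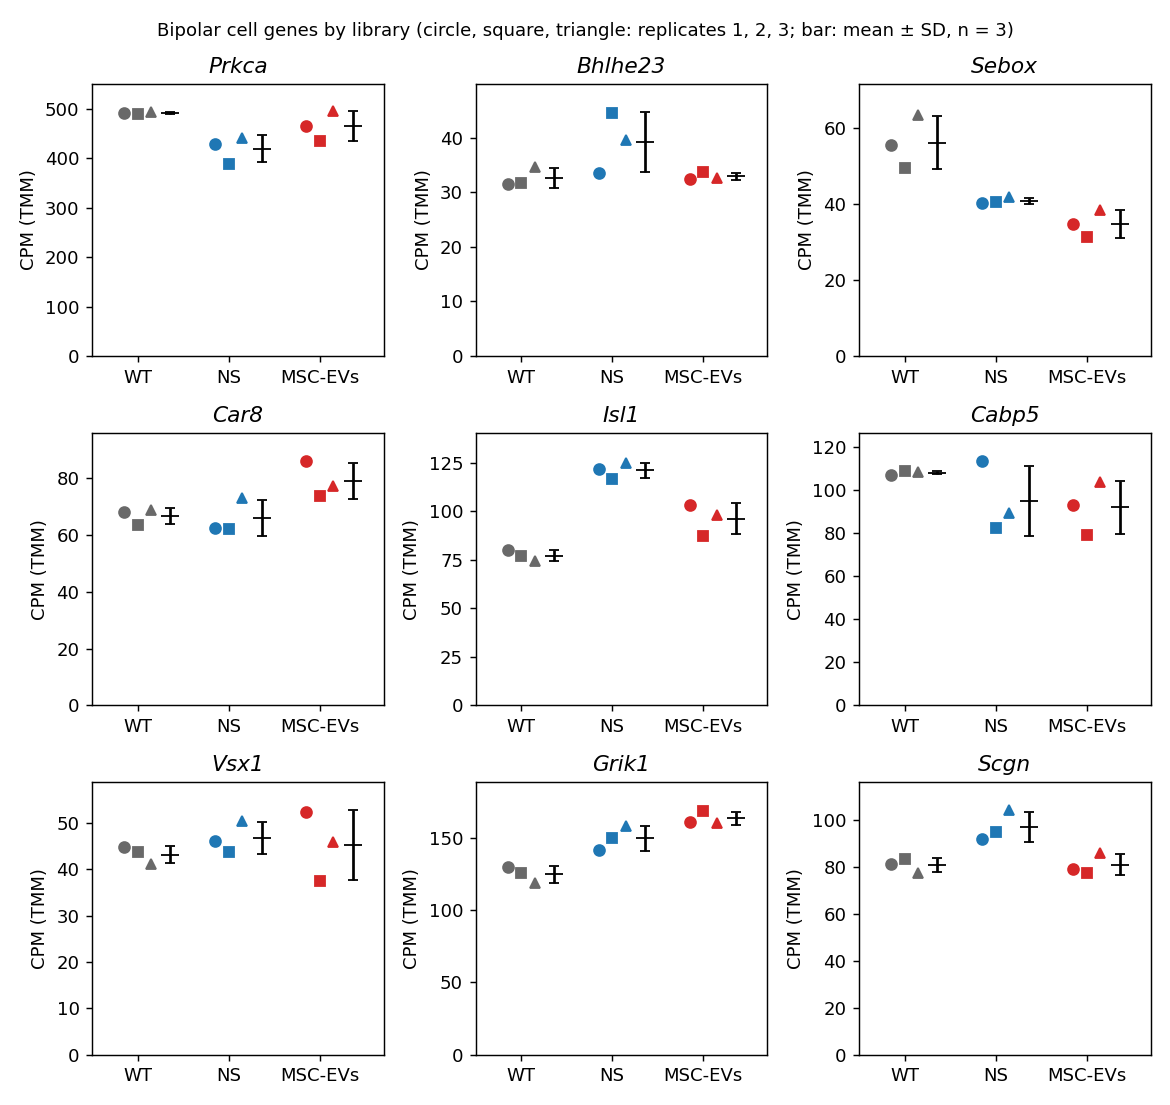
TMM-scaled CPM of the 9 bipolar cell genes in each library (points, replicates 1 to 3) with the mean ± SD (n = 3) beside them, for each of the 3 groups, each axis starting at 0. Isl1 lies between 74.4 and 80.0 in WT and between 117 and 125 in NS-treated retinas, and Sebox is highest in WT.

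The comparison of NS-treated rd10 with WT retinas asked how these genes stand once the rods are lost. Isl1, Grik1, Scgn and Bhlhe23 were higher, Sebox and Prkca were lower, and Vsx1, Cabp5 and Car8 did not pass the test. These counts are read against a transcriptome in which 31.2% of the 14644 genes tested were called higher and 30.1% lower (edgeR adjusted p under 0.05), so that 4 of 9 and 2 of 9 were near the background. The libraries of both groups did not overlap for 5 of 9 members, against 66.9% of all genes. No member differed by 2-fold, and 1341 of the 14644 genes tested were called higher and 522 lower with at least that difference. The median of the 9 log2 fold changes was 0.11, against 0.0053 over all genes tested.

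Isl1, a LIM-homeodomain factor needed for ON bipolar cells, lies on chromosome 13 (116298281 to 116309689, minus strand, GRCm38, ENSMUSG00000042258). It stood at 80.0, 77.0 and 74.4 CPM in the WT libraries, at 122, 117 and 125 CPM in NS-treated and at 103, 87.3 and 98.2 CPM in MSC-EVs-treated libraries. The groups formed 3 steps without overlap, with WT the lowest and NS-treated the highest. The log2 fold change of NS-treated against WT was 0.65 ± 0.056 (SE, edgeR adjusted p = 1.0158e-06), a 1.57-fold rise and the largest of the members. It stayed between 0.63 and 0.68 with any library left out. Isl1 is also expressed in cholinergic amacrine cells and ganglion cells. Of the amacrine marker list, 10 of 14 genes tested were higher and none lower in NS-treated retinas, against 31.2% and 30.1% of all genes. The summed level of that list was 2084 to 2141 CPM in WT and 2513 to 2774 CPM in NS-treated libraries. Of the ganglion list 6 of 12 were higher, with sums of 1296 to 1681 and 1569 to 1805 CPM. The part of these cells in the Isl1 result was not tested. In such bulk samples, a change in the number of cells and a change in RNA per cell cannot be told apart.

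Vsx1, a paired-like homeobox factor of several cone bipolar types, lies on chromosome 2 (150680702 to 150689360, minus strand, ENSMUSG00000033080). It was at 44.7, 43.7 and 41.1 CPM in WT, at 46.1, 43.7 and 50.5 CPM in NS-treated and at 52.3, 37.4 and 45.9 CPM in MSC-EVs-treated libraries. The 3 groups overlapped, and the widest spread was among the MSC-EVs-treated libraries. Its log2 fold change in NS-treated against WT retinas was 0.11, with a 95% interval of -0.040 to 0.27 (edgeR adjusted p = 0.180).

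Bhlhe23, a basic helix-loop-helix factor needed for rod bipolar cells, lies on chromosome 2 (180774381 to 180776900, minus strand, ENSMUSG00000045493). It shares 144 exonic bases with Gm14343 on the same strand, where reads could be assigned to either gene. Its levels were 31.5, 31.6 and 34.6 CPM in WT, 33.5, 44.4 and 39.6 CPM in NS-treated and 32.5, 33.7 and 32.5 CPM in MSC-EVs-treated libraries. NS replicate 1 lay within the WT range. The log2 fold change of NS-treated against WT was 0.26 ± 0.096 (edgeR adjusted p = 0.0313), and this call rested on single libraries: the adjusted p was 0.0994 without WT replicate 1, 0.0999 without WT replicate 2, 0.114 without NS replicate 2 and 0.0715 without NS replicate 3.

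Sebox, a homeobox gene whose retinal transcript marks rod bipolar cells, lies on chromosome 11 (78503447 to 78505081, plus strand, ENSMUSG00000001103). It was at 55.5, 49.5 and 63.5 CPM in WT, at 40.3, 40.5 and 41.7 CPM in NS-treated and at 34.6, 31.3 and 38.5 CPM in MSC-EVs-treated libraries. As for Isl1, the 3 groups did not overlap, but here WT was the highest and MSC-EVs-treated the lowest. Sebox fell by 0.46 ± 0.082 on the log2 scale in NS-treated against WT retinas (edgeR adjusted p = 0.000401), and with any library left out the log2 fold change lay between -0.54 and -0.36.

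Prkca, which encodes the protein kinase C alpha used to stain rod bipolar cells, lies on chromosome 11 (107933387 to 108343928, minus strand, ENSMUSG00000050965) and shares 30 exonic bases with Apoh on the opposite strand. It stood at 491, 490 and 494 CPM in WT, at 429, 388 and 440 CPM in NS-treated and at 466, 434 and 495 CPM in MSC-EVs-treated libraries. Every NS-treated library was below every WT library, and the MSC-EVs-treated libraries spanned from the NS-treated range to the WT range. Prkca fell by 0.23 ± 0.059 on the log2 scale in NS-treated against WT retinas (edgeR adjusted p = 0.00452), a level 1.17-fold lower.

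Grik1, a kainate receptor subunit of OFF cone bipolar cells, lies on chromosome 16 (87895900 to 88290265, minus strand, ENSMUSG00000022935). Its levels were 130, 125 and 119 CPM in WT, 141, 150 and 158 CPM in NS-treated and 161, 169 and 161 CPM in MSC-EVs-treated libraries. The groups did not overlap and rose from WT to NS-treated to MSC-EVs-treated. The log2 fold change of NS-treated against WT was 0.26 ± 0.059 (edgeR adjusted p = 0.00218).

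Among the genes of EF-hand proteins, Scgn rose and Cabp5 did not pass the test. Scgn, which encodes secretagogin of cone bipolar cells, lies on chromosome 13 (23953456 to 23991214, minus strand, ENSMUSG00000021337) and was at 81.5, 83.7 and 77.7 CPM in WT, at 92.1, 95.2 and 104 CPM in NS-treated and at 79.4, 77.7 and 86.2 CPM in MSC-EVs-treated libraries. The NS-treated libraries stood above all others. Its log2 fold change in NS-treated against WT retinas was 0.26 ± 0.061 (edgeR adjusted p = 0.00275).

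Cabp5, which encodes a calmodulin-like protein of rod bipolar cells and some cone bipolar types, lies on chromosome 7 (13398132 to 13408887, plus strand, ENSMUSG00000005649). It was at 107, 109 and 108 CPM in WT, at 113, 82.4 and 89.2 CPM in NS-treated and at 93.1, 79.1 and 104 CPM in MSC-EVs-treated libraries. NS replicate 1 was the highest of all 9 libraries and the other two NS-treated libraries were below every WT library. The log2 fold change of NS-treated against WT was -0.18 (95% interval -0.42 to 0.052, edgeR adjusted p = 0.157). Without NS replicate 1 it was -0.34 and passed the test (edgeR adjusted p = 0.000287).

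Car8, a carbonic anhydrase-related protein gene expressed in bipolar cells, lies on chromosome 4 (8143362 to 8239041, minus strand, ENSMUSG00000041261). It was at 68.0, 63.6 and 68.8 CPM in WT, at 62.3, 62.0 and 73.2 CPM in NS-treated and at 85.9, 73.8 and 77.2 CPM in MSC-EVs-treated libraries. WT and NS-treated libraries overlapped, with a log2 fold change of -0.022 (95% interval -0.18 to 0.13, edgeR adjusted p = 0.801), while every MSC-EVs-treated library was above them. The sign of this small value depended on the scaling.

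The split between higher and lower members depended on what the counts were scaled to. When each library was scaled to the amacrine, horizontal and ganglion cell marker genes, which moved the median of all genes to -0.31 and the higher share of all calls from 50.8% to 22.0%, 1 member was called higher in NS-treated retinas (Isl1, 0.34) and 4 lower (Sebox, -0.78, Prkca, -0.55, Cabp5, -0.50, and Car8, -0.34), against 14.2% and 50.3% of all genes. On that scale the log2 fold changes of Vsx1, Bhlhe23, Grik1 and Scgn turned to -0.20, -0.045, -0.048 and -0.049, none of them called. On log2(FPKM + 1) with limma, the median of all genes was 0.14, the higher share of calls was 71.5%, and 5 members were higher (Vsx1 in addition) and 1 lower (Sebox), against 41.2% and 16.4% of all genes. Prkca, at -0.056, then did not pass the test. Relative to the median of all genes, the member median stayed close, at 0.11 with TMM, 0.11 with the scaling to inner retinal neurons and 0.13 on FPKM. Isl1 was higher and Sebox was lower on all 3 scales, as the plot of log2 fold changes by scale shows.

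**Figure D2:**
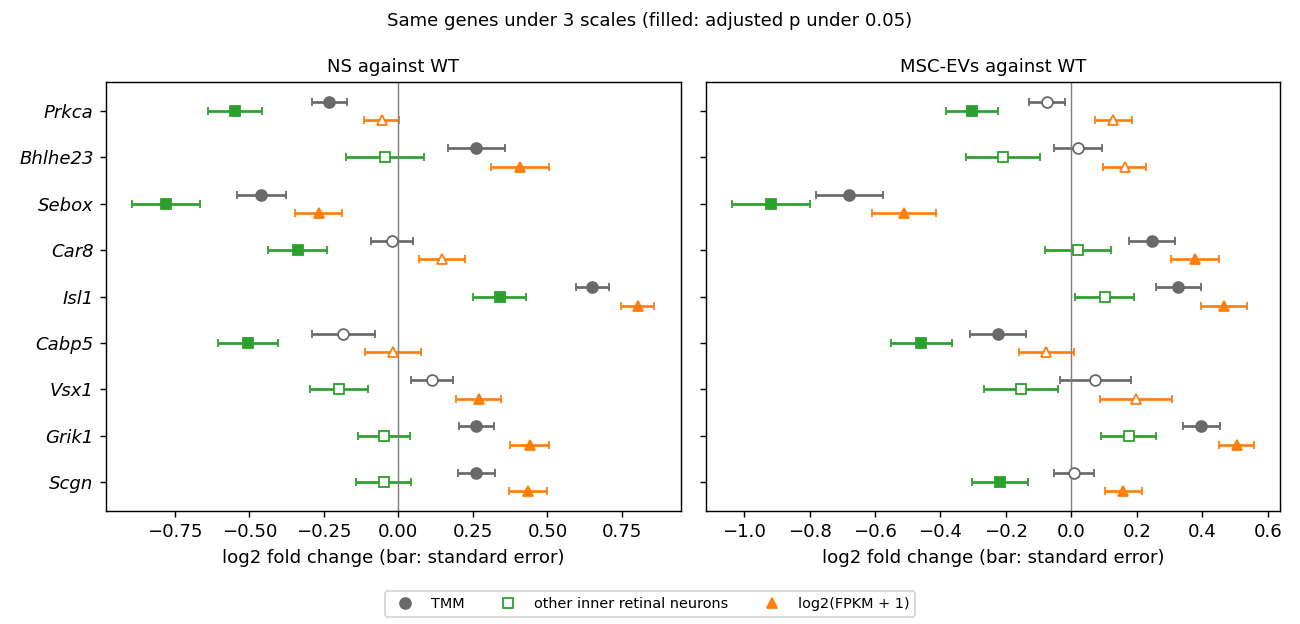
Log2 fold changes (points) with their standard errors (bars) of the 9 genes in NS-treated (left) and MSC-EVs-treated (right) rd10 against WT retinas under TMM, scaling to markers of other inner retinal neurons, and log2(FPKM + 1), with filled points where the adjusted p is under 0.05. The order of the genes is similar on the 3 scales, while the position of zero moves: Prkca against WT in NS-treated retinas is at -0.23, -0.55 and -0.056 in that order.

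The ratio of members within a library hardly depends on that scaling. The members that mark cone bipolar cells (Vsx1, Grik1 and Scgn) were therefore set against those tied to rod bipolar cells (Prkca, Bhlhe23, Sebox and Car8) as the difference of mean log2 CPM within each library. This grouping was made after the values were seen, and it is a description without a test. Isl1, needed for ON bipolar cells, and Cabp5, of rod and some cone bipolar types, were left out. The genes of a set did not move together in NS-treated against WT retinas. Sebox (-0.46) and Prkca (-0.23) were lower, Car8 (-0.022) was not called, and Bhlhe23 (0.26) was higher. Grik1 and Scgn were higher (0.26 each), and Vsx1 (0.11) was not called. The difference was -0.16, -0.12 and -0.36 in the WT libraries, 0.12, 0.074 and 0.14 in NS-treated and 0.095, 0.049 and 0.047 in MSC-EVs-treated libraries. All 6 rd10 libraries were above the 3 WT libraries. Leaving out 1 gene at a time kept the groups apart in 5 of 7 cases. This shows only how far the difference rested on single genes, as the sets were chosen with their values known. Without Sebox the WT libraries ran from -0.54 to -0.37 and the rd10 libraries from -0.38 to -0.19, and without Grik1 from -0.72 to -0.47 and from -0.50 to -0.23, so that the ranges overlapped in both cases.

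**Figure D3:**
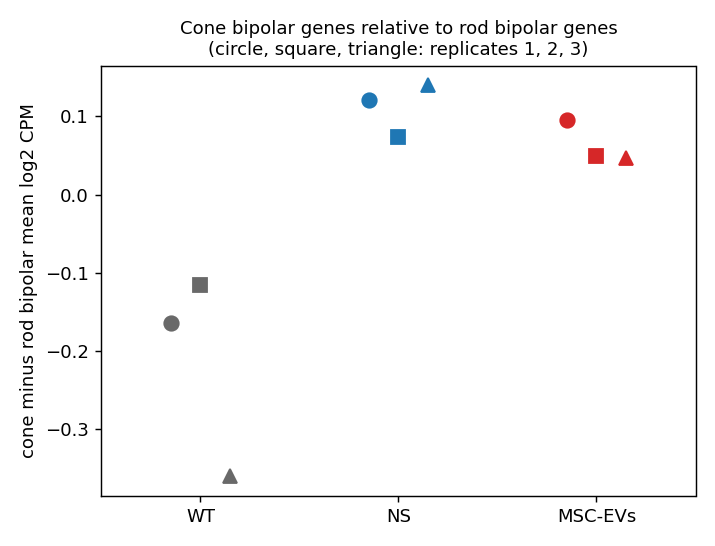
Mean log2 CPM of Vsx1, Grik1 and Scgn minus that of Prkca, Bhlhe23, Sebox and Car8 in each library (points, replicates 1 to 3), by group. The WT libraries lie between -0.36 and -0.12 and the 6 rd10 libraries between 0.047 and 0.14.

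The comparison of MSC-EVs-treated with NS-treated rd10 retinas asked what differed after the vesicles, in groups that also differed in Y-linked level. In the edgeR fit of these 6 libraries, no member was called. In that fit, 0.914% of 14765 genes were called higher and 0.251% lower. An unadjusted p under 0.05 was found for 5 of 9 members and for 20.2% of all genes. The Wald test of DESeq2 called 2 members lower, Isl1 and Scgn, where it called 2.07% of all genes lower, and so did edgeR with all 9 libraries in one fit, where 2.6% of 14908 genes were lower. The groups did not overlap for 5 of 9 members, against 26.2% of all genes: Isl1, Scgn and Sebox were lower and Grik1 and Car8 higher in every MSC-EVs-treated library. The median of the 9 log2 fold changes was -0.045, against -0.0016 over all genes tested.

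Isl1 had the smallest p of the members, with a log2 fold change of -0.33 (95% interval -0.49 to -0.16) and an edgeR adjusted p of 0.0657. With the Wald test of DESeq2 its adjusted p was 0.00636, and with all 9 libraries in one edgeR fit it was 0.0161. Scgn was at -0.26 (95% interval -0.42 to -0.092), with an adjusted p of 0.103 in edgeR, 0.0457 in DESeq2 and 0.0340 in the edgeR fit of all 9 libraries. With the Y-linked covariate Isl1 was at -0.30 and Scgn at -0.17, values that rested mainly on MSC-EVs replicate 3. In both genes the MSC-EVs-treated libraries lay nearer to WT than the NS-treated libraries did, and the Scgn values of MSC-EVs-treated (77.7 to 86.2 CPM) and WT libraries (77.7 to 83.7 CPM) overlapped.

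For the other members the intervals of MSC-EVs against NS bound what could have been missed. Car8 was at 0.27 (0.067 to 0.46, edgeR adjusted p = 0.143), Sebox at -0.22 (-0.43 to -0.021, edgeR adjusted p = 0.208) and Bhlhe23 at -0.25 (-0.48 to -0.012, edgeR adjusted p = 0.226). Prkca was at 0.15 (-0.0091 to 0.32, edgeR adjusted p = 0.272) and Grik1 at 0.13 (-0.013 to 0.28, edgeR adjusted p = 0.288). The intervals of Vsx1 (-0.31 to 0.22) and Cabp5 (-0.37 to 0.29) lay on both sides of 0, with log2 fold changes of -0.045 and -0.042. Sebox, Grik1 and Car8 had means farther from WT in the MSC-EVs-treated than in the NS-treated libraries, and Prkca and Bhlhe23 had nearer ones.

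MSC-EVs replicate 2 had the lowest level of its group for 7 of 9 members, and NS replicate 3 had the highest for 7 of 9. The microglial marker genes summed to 618 CPM in MSC-EVs replicate 2, the highest of all libraries, and to 440 CPM in NS replicate 3, the lowest of the rd10 libraries except MSC-EVs replicate 3 (354 CPM). Without MSC-EVs replicate 2 the log2 fold changes of Isl1, Scgn and Sebox against NS kept their sign, and no member passed the test with any of the 6 libraries left out. Among the rd10 libraries, the amacrine list was also lowest in MSC-EVs replicate 2 (2353 CPM) and highest in NS replicate 3 (2774 CPM). So was the horizontal cell list (480 and 534 CPM). The ganglion list was lowest in MSC-EVs replicate 2 (1547 CPM) but highest in MSC-EVs replicate 3 (1847 CPM). The part of the microglial level, or of these other levels, in the members' values was not tested.

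**Figure D4:**
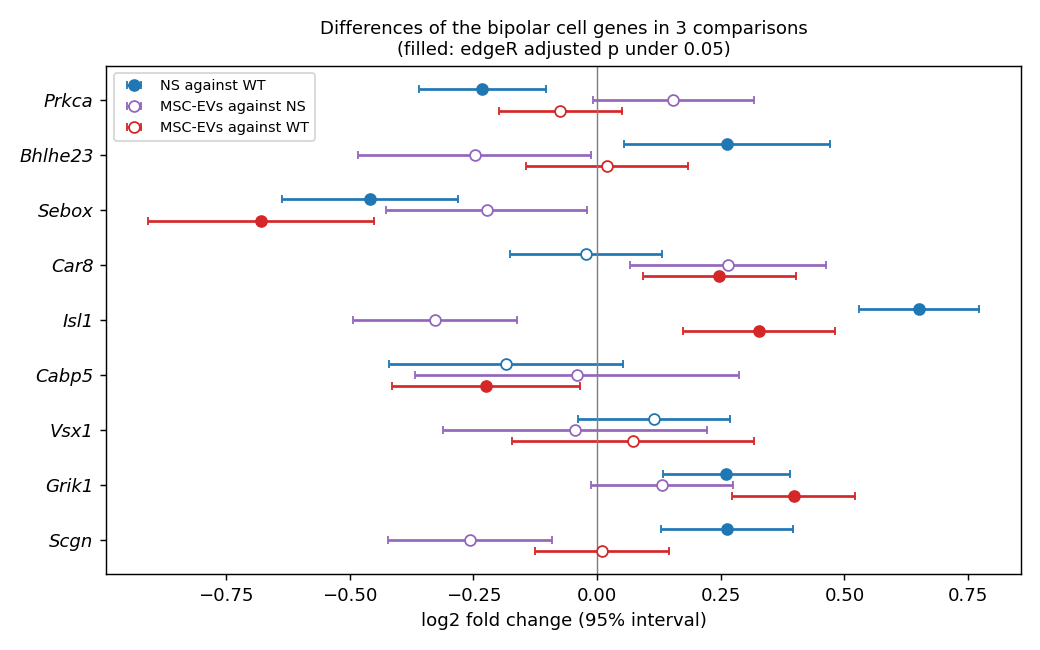
Log2 fold changes of the 9 genes with 95% intervals in NS-treated against WT, MSC-EVs-treated against NS-treated and MSC-EVs-treated against WT retinas (edgeR, 3 libraries per group), with filled points where the adjusted p is under 0.05. No MSC-EVs against NS point is filled, and Isl1 has the largest positive value in NS-treated against WT, 0.65.

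Against WT, the MSC-EVs-treated retinas had 3 members higher (Isl1, Grik1 and Car8) and 2 lower (Sebox and Cabp5), where 28.3% of 14623 genes were called higher and 27.2% lower. The groups did not overlap for these 5 members, against 65.1% of all genes, and the median of the 9 log2 fold changes was 0.020, against -0.0041 over all genes. This comparison shares its WT libraries with the first and its MSC-EVs-treated libraries with the second. Sebox fell by 0.68 ± 0.10 on the log2 scale (edgeR adjusted p = 0.000412), a level 1.60-fold lower. Grik1 was at 0.40 ± 0.056 (edgeR adjusted p = 0.000249) and Isl1 at 0.33 ± 0.069 (edgeR adjusted p = 0.00270).

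Car8, at 0.25 ± 0.069 (edgeR adjusted p = 0.0123), lost its call without WT replicate 2 (edgeR adjusted p = 0.0688), and Cabp5, at -0.22 ± 0.085 (edgeR adjusted p = 0.0454), lost it without WT replicate 1, 2 or 3 or without MSC-EVs replicate 1 or 2 (edgeR adjusted p between 0.0897 and 0.118). Cabp5 was not called either with all 9 libraries in one fit (edgeR adjusted p = 0.127), with at least 10 counts required in every library (edgeR adjusted p = 0.0534) or on log2(FPKM + 1) (-0.077, limma adjusted p = 0.466). The Y-linked covariate was an alternative added after the data were seen. With it Car8 was at 0.21 and Cabp5 at -0.063, values that rested mainly on MSC-EVs replicate 3. Prkca (-0.074, 95% interval -0.20 to 0.050), Bhlhe23 (0.020, -0.14 to 0.18), Scgn (0.0091, -0.13 to 0.14) and Vsx1 (0.073, -0.17 to 0.32) did not pass the test. Scaled to the inner retinal neurons, 0 members were higher and 4 lower (Sebox, Cabp5, Prkca and Scgn), against 15.5% and 43% of all genes, with the median of all genes at -0.23 and a higher share of all calls of 26.5% in place of 51.0%. On log2(FPKM + 1), 4 were higher (Isl1, Grik1, Car8 and Scgn) and 1 lower (Sebox), against 37.6% and 15.2% of all genes, with a median of 0.12 and a share of 71.2%. Scgn was thus called lower on the former scale (-0.22) and higher on the latter (0.16).

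The members were also read beside 36 other genes of bipolar cells. In NS-treated against WT retinas, 21 of the 36 were higher, 4 lower and 11 not called, with a median log2 fold change of 0.29 and groups that did not overlap for 25, against 31.2%, 30.1% and 66.9% of all genes higher, lower and not overlapping. With the scaling to inner retinal neurons the counts were 7 higher and 8 lower, against 14.2% and 50.3% of all genes. Their summed level was 4325 to 4413 CPM in WT, 3997 to 4259 CPM in NS-treated and 3886 to 4231 CPM in MSC-EVs-treated libraries. Without Rgs9bp, whose level is given below, the sums were 2995 to 3116, 3680 to 3980 and 3538 to 3875 CPM, so that the lower rd10 sum rested on that gene.

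Of the transcription factor genes of that list, in NS-treated against WT retinas, Lhx4 was at 0.28 (edgeR adjusted p = 0.00550) and Lhx3 at 0.37 (edgeR adjusted p = 0.0203), both LIM-homeobox genes of cone bipolar types. Irx6, of OFF cone bipolar types, was at 0.057 and not called. Otx2, which acts in photoreceptors, bipolar cells and pigment epithelium alike, fell by 0.26 ± 0.052 (edgeR adjusted p = 0.000959) from 222 to 229 CPM in WT to 183 to 196 CPM in NS-treated libraries.

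Of the genes of the mGluR6 cascade, the receptor gene Grm6 was at 0.30 ± 0.079 (edgeR adjusted p = 0.00671) and the channel gene Trpm1 at 0.37 ± 0.070 (edgeR adjusted p = 0.000589) in NS-treated against WT retinas. Gnb3, a G protein beta subunit gene shared by cones and ON bipolar cells, had the second largest rise of the list (0.90 ± 0.11). The largest rise was that of Htr3a (1.43 ± 0.15), a serotonin receptor gene of some cone bipolar cells. Htr3a stood at only 2.86 to 3.85 CPM in WT. Gng13 (0.070), Pcp2 (-0.047) and Cabp2 (-0.12) were not called. The largest falls were those of Rgs9bp (-2.04 ± 0.095), at 1297 to 1358 CPM in WT and 279 to 375 CPM in NS-treated libraries, whose product anchors the transducin GTPase complex in photoreceptors and also occurs in ON bipolar cells, and Lrit3 (-0.86 ± 0.13), which is made by photoreceptors and is needed for TRPM1 at the bipolar dendrite. The rod markers fell together with them, from 84338 to 90366 CPM summed over the list in WT to 17156 to 24485 CPM in NS-treated libraries, and their part in both values was not tested.

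In MSC-EVs against NS, 2 of these 36 genes were higher, 2 lower and 32 not called, against 0.914% of all genes higher and 0.251% lower. Their median log2 fold change was -0.059, and the groups did not overlap for 9, against 26.2% of all genes. Pcp2, which encodes a G protein modulator of ON bipolar cells, was at 82.6, 86.2 and 97.4 CPM in NS-treated and at 65.9, 63.7 and 69.6 CPM in MSC-EVs-treated libraries. The groups did not overlap, and the log2 fold change was -0.41 ± 0.079 (edgeR adjusted p = 0.0451). Gng13, a G protein gamma subunit gene of ON bipolar cells, was at -0.43 ± 0.085 (edgeR adjusted p = 0.0489). Genes of ON bipolar cells did not all fall: Grm6 was at -0.35 and Trpm1 at 0.26, and neither was called. The 2 higher genes, named after their values were seen, were the cone bipolar genes Kcng4 (0.59 ± 0.091, edgeR adjusted p = 0.0261) and Syt2 (0.37 ± 0.063, edgeR adjusted p = 0.0343). These 4 calls rested on single libraries: the number of the list called was 0 when NS replicate 2 was left out, and likewise for NS replicate 3 and for MSC-EVs replicate 1, 1 without MSC-EVs replicate 3, 2 without NS replicate 1 and 7 without MSC-EVs replicate 2. In MSC-EVs against WT, 16 of the 36 were higher and 7 lower, against 28.3% and 27.2% of all genes. Their median was 0.24, and the groups did not overlap for 24, against 65.1% of all genes.

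Genes whose pattern over the 9 libraries was most like a member were found as the smallest root mean square difference of centred log2 CPM among 12969 genes. For Isl1 these were Rgl3 (0.059) and Pax6 (0.060), a homeobox gene of amacrine, ganglion and horizontal cells. For Prkca they were Gpat4 (0.019) and Mrpl37 (0.029), for Grik1 Tulp4 (0.044) and Uck2 (0.045), and for Scgn Ldhb (0.028) and Zcchc18 (0.029). Sebox was nearest to Gm28043 (0.061) and Abcd4 (0.072), Cabp5 to Kat2a (0.069) and Pomk (0.080), Vsx1 to Slc35a5 (0.047) and Tbc1d4 (0.049), Bhlhe23 to Rps4x (0.054) and Pebp1 (0.056), and Car8 to Tbk1 (0.055) and Zbtb41 (0.062). The members were not each other's nearest genes: the closest pair, Bhlhe23 and Scgn, differed by 0.12, and Scgn ranked 405 among the genes nearest to Bhlhe23. Sebox had the most distant nearest member, Cabp5, at 0.24. The points of this measure share depth and normalization.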

How the data were processed

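RNA was extracted from retinas with Trizol, enriched with oligo(dT) beads and sequenced on an Illumina platform. The authors deposited 1 table that gives, for every gene in every library, an expected (estimated) count beside an FPKM value. The submitters' processing notes name fastp, Bowtie2, HISAT2, StringTie 1.3.1 and RSEM. The genome build, the annotation and the use of strand are not given in the sources used here, so overlapping genes of opposite strands could not be separated. The FPKM values were scaled by the authors to transcript length and depth, the estimated counts were not. Decimals occurred in 9.16% to 11.7% of the values of a library, and each estimated count was rounded.

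Groups were compared 2 at a time, with only their 6 libraries in the fit, by the quasi-likelihood test of edgeR 4.0.16 under R 4.3.3 (filterByExpr, TMM, robust glmQLFit and glmQLFTest), and the p-values were adjusted by Benjamini-Hochberg over all genes tested, with calls at an adjusted p under 0.05. CPM used TMM over the 9 libraries (factors 0.919 to 1.053), and log2 CPM for ratios within a library and for likeness a prior count of 2. A gene counted as not overlapping where every library of one group lay above every library of the other. Libraries of a group always differed by more than sampling noise (chi-square per degree of freedom of 4.10 or more). The floor of 3 counts lay between 0.0469 and 0.150 CPM. Scripts were tested on simulated data with known changes of 2-fold or more and a single spread for all genes. That test does not cover differences as small as those of the members.

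The members and gene lists were chosen with earlier results of these data known. The genes named are all members, a fixed set of other bipolar genes with the 2 largest rises and falls in NS-treated against WT, and the 2 nearest genes per member by likeness (average log2 CPM of at least 1). Of the other bipolar genes, 2 are not reported here by name. Alternatives were DESeq2 1.42.0 (size factors or Wald test), upper-quartile scaling, scaling by the median ratio of the amacrine, horizontal and ganglion cell lists, other filters, all 9 libraries, a replicate block, limma 3.58.1 on log2(FPKM + 1) or log2(FPKM + 0.1), the Y-linked covariate and each library left out. Positions are from GENCODE M21 (GRCm38), which holds 22283 of the 22337 identifiers, and promoters from RefSeq (GRCm38.p6).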

Additional observations from a re-analysis of the deposited data

How the results depend on the processing

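In NS-treated against WT retinas, the number of members called was 5 to 7 with each library left out (6 with all), of genes 7799 to 9110, and of other bipolar genes 24 to 27, or 15 in place of 25 with the scaling to inner retinal neurons. Besides the sign changes given with the results under that scaling (Vsx1 -0.20, Bhlhe23 -0.045, Grik1 -0.048 and Scgn -0.049), Car8 became positive with upper-quartile scaling (0.011), on log2(FPKM + 1) (0.15), on log2(FPKM + 0.1) (0.15), and without WT replicate 3 (0.0025), NS replicate 1 (0.010) or NS replicate 2 (0.016), its range with each library left out being -0.10 to 0.016.

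In MSC-EVs against NS, 172 genes were called, 947 with the Wald test of DESeq2 and 1026 with all 9 libraries in one fit, each with 2 members, and 0 to 676 genes with each library left out (0 without NS replicate 3 or MSC-EVs replicate 1). Other bipolar genes called were 0 to 7 with a library left out, in place of 4. Replicates with the same number were not shown to be paired, since the correlations of their deviations were 0.046 to 0.23 here, -0.075 to 0.078 in NS against WT and 0.025 to 0.080 in MSC-EVs against WT, although all 6 libraries correlated best with their own number in both comparisons of MSC-EVs. With the replicate block, 403 genes and 1 member were called, Isl1 (log2 fold change -0.33, edgeR adjusted p = 0.0454). Vsx1 and Cabp5 changed sign with the scaling to inner retinal neurons (0.015 and 0.016), Vsx1 without NS replicate 3 (0.013) or MSC-EVs replicate 2 (0.071, the range being -0.16 to 0.071), and Cabp5 without NS replicate 1 (0.11, the range being -0.14 to 0.11), without MSC-EVs replicate 2 (0.055) or with the covariate (0.14).

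In MSC-EVs against WT, the number of members called was 3 to 5 with a library left out, in place of 5. The scaling to inner retinal neurons turned Vsx1 (-0.15), Bhlhe23 (-0.21) and Scgn (-0.22). Prkca became positive on log2(FPKM + 1) (0.13), on log2(FPKM + 0.1) (0.13) and with the covariate (0.0059), Bhlhe23 negative without WT replicate 1 (-0.0068), WT replicate 2 (-0.0013) or MSC-EVs replicate 2 (-0.0046) and with the covariate (-0.0062), Scgn negative without WT replicate 3 (-0.025) or MSC-EVs replicate 3 (-0.036), and Vsx1 negative without MSC-EVs replicate 1 (-0.036). Over the left-out libraries Vsx1 ran from -0.036 to 0.18, Bhlhe23 from -0.0068 to 0.061 and Scgn from -0.036 to 0.032. None of these values was called except that of Scgn under the scaling. The cause of these changes was not tested. With 3 libraries per group and differences under 2-fold, values near 0 could not be resolved.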
